A study of Oncorhynchus mykiss with 24 samples.

Results

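The genes fd6d, which encodes a fatty acid desaturase, and pparg, which encodes a lipid-sensing nuclear receptor, were followed in the livers of trout on 6 diets. They were found by gene symbol in the platform annotation of the array. That annotation names 49 of the 4368 features, with 32 symbols, and a feature here is the mean of 2 adjacent spots. Each symbol marked exactly 1 feature, so 2 of the 4368 features are described, fd6d at spots 2030207 and 2030208 and pparg at spots 9011303 and 9011304. The members were selected on their log2 ratios to the reference, which were already known, in particular the higher fd6d ratios on 2 of the diets. The ratios of each diet to its reference are therefore a description and not a test.

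Juvenile rainbow trout (Oncorhynchus mykiss) of the Mt. Shasta strain, 12 to 18 months old, were fed a casein-based diet that held 1 test compound for 12 days, and livers were taken on day 13. The compounds are given by abbreviation and read here in their usual sense: E2 for the estrogen estradiol, fed at 5 ppm, BNF for the flavone β-naphthoflavone, fed at 500 ppm, and I3C and DIM for the plant indole indole-3-carbinol and its dimer diindolylmethane, each fed at 500 or at 1500 ppm. Every treatment had 2 tanks with 6 fish in each. The reference on every array was 1 pool of liver RNA from 12 fish whose diet held 0.15% of the vehicle, dimethyl sulfoxide. Each diet had 2 liver RNA samples, and each sample was read on 2 arrays with the dyes swapped, which gives 24 arrays for 12 samples. How many fish stand behind a sample is not stated, so the spread between samples may be partly technical.

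The desaturase family to which fd6d belongs sits in the membrane of the endoplasmic reticulum and puts double bonds into fatty acids. In salmonid fish this enzyme is known for the first step by which the liver turns shorter polyunsaturated fatty acids of the diet into the long-chain ones of membranes. The receptor encoded by pparg binds fatty acids, pairs with a retinoid X receptor on DNA and, in mammals, is best known for driving fat cell formation and fat storage. Both genes have close relatives. The RefSeq gene table of assembly USDA_OmykA_1.1 lists fd6d beside a second gene named fads2, and it lists 2 genes under the name or synonym pparg, neither of which carries the identifier that the array annotation gives. Whether the spotted DNA also captured transcripts of the relatives was not tested.

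A positive log2 ratio below is higher in fish on the compound than in the vehicle pool, in the likely direction only. No label names the numerator of the deposited ratio. Cy3 over Cy5 is assumed, and if it was Cy5 over Cy3 every sign changes. The 4 arrays of the first E2 sample and of the first DIM sample at 500 ppm correlated negatively with arrays that carried the dyes the same way, with medians from -0.70 to -0.54 over all spots, while the other 20 arrays had 0.20 to 0.77. These 4 were turned. No label settles their direction. The fd6d and pparg ratios, and differences between 2 diets, are also given with the deposited signs where these move them by over 1.5 times or turn them. Means of other features on E2 and on DIM at 500 ppm are given only as turned. The deposited signs would reverse the first sample in each of those means. The first BNF sample was noisier than the others, with correlations of 0.41 and 0.57 between the spots of a pair against 0.81 to 0.94 on the remaining arrays. The log base is not stated and is taken as 2. Under a natural log every change would be larger, except on a BNF array that was deposited as a linear ratio and converted here.

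The desaturase fd6d had its highest ratios on the DIM diets. On DIM at 500 ppm its log2 ratio was 0.75 in the first sample and 0.49 in the second, with a mean of 0.62 ± 0.17 (SE, n = 2), a 1.54-fold level. On DIM at 1500 ppm the samples stood at 0.51 and 0.74, with a mean of 0.63 ± 0.17 (n = 2), a 1.55-fold level. The 2 doses overlapped, and as turned fd6d stood above 0 on all 8 arrays and at all 16 spots of the DIM diets. These arrays and spots are technical repeats of 4 samples, and no such count is given for all features. Among all features, the fd6d means on DIM lay at percentile 97.1 at 500 ppm and percentile 96.6 at 1500 ppm, counted from the lowest ratio.

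The first DIM sample at 500 ppm is one of those turned. With its deposited sign it stood at -0.75, and the mean of that diet at -0.13. No DIM array at 1500 ppm was turned, so the fd6d ratio at that dose does not rest on the turn. limma called fd6d higher, at a Benjamini-Hochberg adjusted p under 0.05 over all features, on both DIM diets and on 2 of the 6 diets in all. On those diets limma called 3.27% and 4.69% of all features higher, at 500 and 1500 ppm. These calls are what drew attention to the gene, and both were lost when either sample of the diet was left out (adjusted p from limma of 0.127 and 0.561 at 500 ppm, 0.0806 and 0.37 at 1500 ppm). With the deposited signs the call at 1500 ppm was lost too, at the same log2 ratio (adjusted p = 0.487).

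On the E2 diet fd6d was 0.50 in the first sample and 0.10 in the second, a mean of 0.30 ± 0.17 (n = 2). The first value is from a turned sample and would be -0.50 with the deposited sign, which would put the mean at -0.20. Its 2 arrays also stood far apart, at 1.04 and -0.039. On I3C at 1500 ppm the samples were 0.29 and 0.062, and on I3C at 500 ppm 0.16 and -0.041. All 4 I3C values lay near 0, with a median of 0.11. On BNF, an agonist of the aryl hydrocarbon receptor, fd6d was 0.23 in the noisier first sample and -0.39 in the second, so that the samples of this diet pointed in opposite directions. limma called fd6d in 0 of these 4 comparisons, while it called 5.98% of all features for E2, 0.755% for I3C at 500 ppm, 9.07% for I3C at 1500 ppm and 0.0458% for BNF.

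Ordered by their means, the diets ran DIM at 1500 ppm, DIM at 500 ppm, E2, I3C at 1500 ppm, I3C at 500 ppm and BNF. Every neighbour in that order overlapped the next in its sample values. Over a wider step the DIM diets stood apart: the lowest of their 4 samples was 0.49 and the highest of the 4 I3C samples 0.29. Of all features, 1.4% had every DIM sample above every I3C sample. Because fd6d was picked for its high DIM ratios, this gap is a description and not a test. The lowest DIM sample was also above both BNF samples, as it was for 14.3% of features, but below the first E2 sample. With the deposited sign of its first sample, DIM at 500 ppm would no longer stand apart from I3C.

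**Figure D1:**
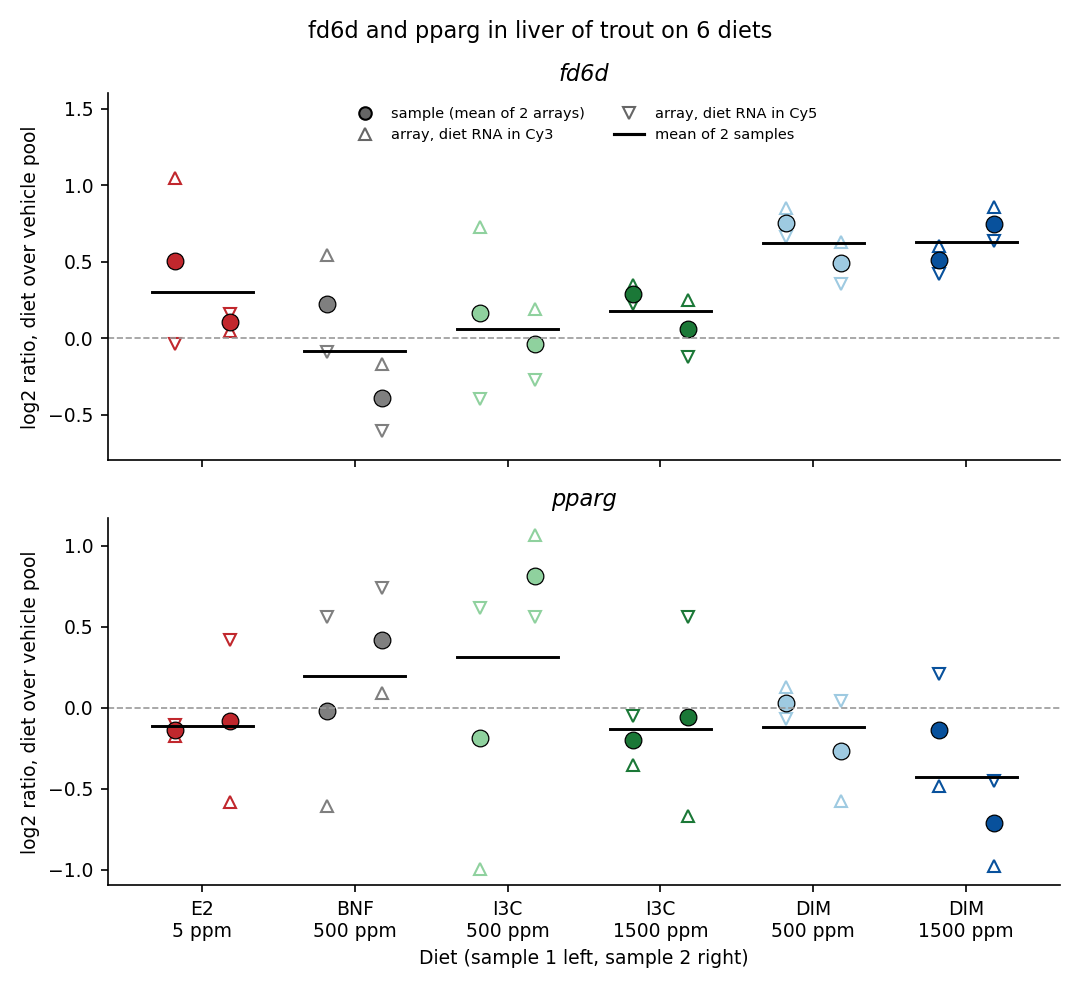
Log2 ratio of fd6d (top) and pparg (bottom) to the vehicle pool on each diet, in the likely direction, with the first E2 sample and the first DIM sample at 500 ppm turned. Filled circles are samples, open triangles their 2 arrays by dye, and black bars the mean of 2 samples; the 4 DIM samples of fd6d lie between 0.49 and 0.75, while the 2 pparg samples on I3C at 500 ppm are the farthest apart, at -0.19 and 0.81.

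The largest mean ratios of the receptor gene pparg, in either direction, came from samples that lay far apart. Its lowest mean was on DIM at 1500 ppm, where the samples stood at -0.14 and -0.71 and the mean at -0.43 ± 0.21 (n = 2). Its highest mean, 0.31 ± 0.21 (n = 2), was on I3C at 500 ppm and came from 1 sample: the first stood at -0.19 and the second at 0.81. Without that second sample the value is the -0.19 of the first.

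On BNF the pparg samples were -0.023 and 0.42. On E2 they were -0.14 and -0.084, close together and both slightly below 0, although the first E2 sample would be 0.14 with its deposited sign and the mean 0.028. The 2 arrays of the second E2 sample stood far apart, at -0.58 and 0.41. On I3C at 1500 ppm the pparg samples were -0.20 and -0.056. On DIM at 500 ppm they were 0.028 and -0.27, on either side of 0, but the first would be -0.028 with its deposited sign. Ordered by its means as turned, pparg ran from I3C at 500 ppm through BNF, E2, DIM at 500 ppm and I3C at 1500 ppm to DIM at 1500 ppm. Only BNF and E2 were neighbours whose samples did not overlap, and no share of all features is given for that gap. Gaps of this kind were common between other diets. Both DIM samples were above both I3C samples for 21.5% of features at 500 ppm and 8.33% at 1500 ppm. With its deposited sign the first E2 sample, at 0.14, would fall between the BNF samples.

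limma called pparg in 0 of 6 comparisons with the pool, with adjusted p from 0.319 to 0.922, and in 0 at an unadjusted p under 0.05. On DIM at 500 and 1500 ppm limma called 10.6% and 9.87% of all features in either direction. The nearest was DIM at 1500 ppm, whose 95% interval ran from -0.88 to 0.027. Under quantile normalization the pparg ratio there was -0.64 and was called (adjusted p from limma of 0.0214). That setting lowered pparg on every other diet too, to -0.40 on E2 and -0.36 on I3C at 1500 ppm. Under it, I3C minus DIM at 1500 ppm was 0.28 and was not called. No share of all features is given for that setting. A reading that misses the threshold does not show that pparg was level across the diets. Its residual standard deviation over the 6 diets was 0.37, higher than for 89.1% of features.

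The spots, dye swaps and samples of the 2 genes were set beside those of all features. The spots of the fd6d pair differed by a median of 0.11 on the log2 scale over 24 arrays, and those of pparg by 0.18, beside 0.16 for all features. Between the 2 arrays of a dye swap the median difference over 12 samples was 0.32 for fd6d and 0.63 for pparg, beside 0.77 for all features. Between the 2 samples of a diet the median difference was 0.25 for fd6d and 0.37 for pparg, beside 0.24 for all features. The readings of both genes were thus closer across dyes than those of a typical feature. The gap mostly ran 1 way, with diet RNA in Cy3 reading higher for fd6d in 11 of 12 samples and lower for pparg in 10. It is therefore not a measure of noise alone. Both genes spread at least as far between samples as a typical feature did.

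Liver tissue could not be checked by marker levels, since a ratio to a liver pool holds no level. Of 17 hepatocyte markers 2 were named on the array, in 3 features. They were antiprot1 and ambp, which encodes a precursor of plasma proteins, and on the DIM diets, where fd6d was highest, these 3 stood between -1.11 and -0.58. They were also low on I3C at 1500 ppm, between -0.79 and -0.73, where fd6d was 0.17. The collagen gene col1a2, one of 2 measured among 6 stellate cell and fibroblast markers, was -1.06 on DIM at 500 ppm and -1.03 at 1500 ppm, beside -0.86 on E2 and -0.82 on I3C at 1500 ppm. The other, sparc, had 2 features, which stood between 0.0055 and 0.36 on the DIM diets. They were 0.41 and -0.085 on E2, and -0.0078 and -0.39 on I3C at 1500 ppm. The only one of 6 red cell markers matched by symbol or synonym, LOC100135826 (synonym CA2, a carbonic anhydrase), was -0.73 and -0.51 on the DIM diets. It was -0.75 both on E2 and on I3C at 1500 ppm. The marker means on E2 and on DIM at 500 ppm include a turned sample, which the deposited signs would reverse. For antiprot1 on DIM at 500 ppm the turned sample was -1.13 and the other -0.89. Of 8 immune cell and 4 fat cell markers 0 were named. The part of these shifts in the fd6d ratio was not tested, and in whole liver fewer cells of a type and less RNA per cell cannot be told apart.

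Setting the diets against each other removes the pool, which otherwise counts as 1 control sample without a spread of its own. The monomer I3C and the dimer DIM were first compared, dose by dose. At 500 ppm fd6d was lower on I3C than on DIM by a log2 difference of -0.56 ± 0.24 (0.062 against 0.62; 95% interval -1.08 to -0.042), and limma did not call it (adjusted p = 0.425), while it called 2.82% of all features. With the deposited signs this difference turned to 0.19, with the turned samples left out it was -0.43, and without centring of the arrays it was -0.997. At 1500 ppm the difference was -0.45 ± 0.24 (0.17 against 0.63; interval -0.97 to 0.066; adjusted p = 0.999 from limma), where 0.0229% of features were called. At each dose both DIM samples of fd6d were above both I3C samples, which was so for 21.5% of features at 500 ppm and 8.33% at 1500 ppm. Because fd6d was taken up for its DIM ratios, these differences start from values picked for being high.

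For pparg the same comparisons gave differences of the opposite sign. I3C minus DIM was 0.43 ± 0.30 at 500 ppm (interval -0.21 to 1.07; adjusted p = 0.809 from limma) and 0.30 ± 0.30 at 1500 ppm (interval -0.34 to 0.94; adjusted p = 0.999). Neither was called, and each rested on 1 sample. At 500 ppm the difference was -0.069 without the second I3C sample and 0.93 without the first. At 1500 ppm it was 0.011 without the second DIM sample and 0.58 without the first.

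With the first DIM sample at 500 ppm turned, the means of fd6d at both doses of DIM were close. The step from 500 to 1500 ppm was 0.0041 ± 0.24 (0.63 against 0.62; interval -0.52 to 0.52; adjusted p = 1 from limma). That step was 0.76 with the deposited signs (adjusted p = 1) and 0.13 with the turned sample left out. For I3C the step was 0.11 ± 0.24 (interval -0.41 to 0.63; adjusted p = 0.852), and 0.46 without centring. The pparg steps were -0.31 ± 0.30 for DIM (adjusted p = 1) and -0.44 ± 0.30 for I3C (adjusted p = 0.577), and both rested on 1 sample. The DIM step was -0.020 without the second sample at 1500 ppm and -0.59 without the first, and -0.16 with the turned sample left out. The I3C step turned to 0.060 without the second sample at 500 ppm and was -0.94 without the first. limma called 1.08% of features between the I3C doses and 0% between the DIM doses.

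Compounds of different kinds were also set side by side, at doses that differ. For DIM at 1500 ppm minus E2 at 5 ppm, fd6d stood at 0.32 ± 0.24 (0.63 against 0.30; interval -0.20 to 0.84; adjusted p = 0.999 from limma) and pparg at -0.31 ± 0.30 (adjusted p = 0.999). For I3C at 1500 ppm minus BNF at 500 ppm, fd6d stood at 0.26 ± 0.24 (0.17 against -0.082; interval -0.26 to 0.78; adjusted p = 0.627) and pparg at -0.33 ± 0.30 (adjusted p = 0.616). With the deposited signs, DIM minus E2 was 0.83 for fd6d and -0.45 for pparg, and without centring 0.68 and 0.040. When 1 sample was left out, it ran from 0.12 to 0.52 for fd6d and from -0.60 to -0.028 for pparg, and I3C minus BNF from -0.052 to 0.56 for fd6d and from -0.54 to -0.11 for pparg. limma called 0.458% and 4.35% of features in these comparisons.

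Over the 6 comparisons between diets, limma called fd6d in 0 and pparg in 0. At an unadjusted p under 0.05 the counts were 1 for fd6d, the difference between I3C and DIM at 500 ppm, and 0 for pparg. No share of all features is given at that threshold. By its p from limma this fd6d difference ranked at 370 among the 4368 features, so at least 370 features passed that threshold in this comparison. With the deposited signs the difference turned to 0.19. A single test of equal means over the 6 diets, limma's moderated F test, gave F = 2.91 for fd6d (adjusted p = 0.447) and F = 1.55 for pparg (adjusted p = 0.843), with 4.9% of all features called. The fd6d level on DIM passed the threshold against the vehicle pool, but the gene was picked for those ratios, so that pass is a description and not a test. The fd6d level on DIM did not pass against I3C at either dose or, at 1500 ppm, against E2.

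**Figure D2:**
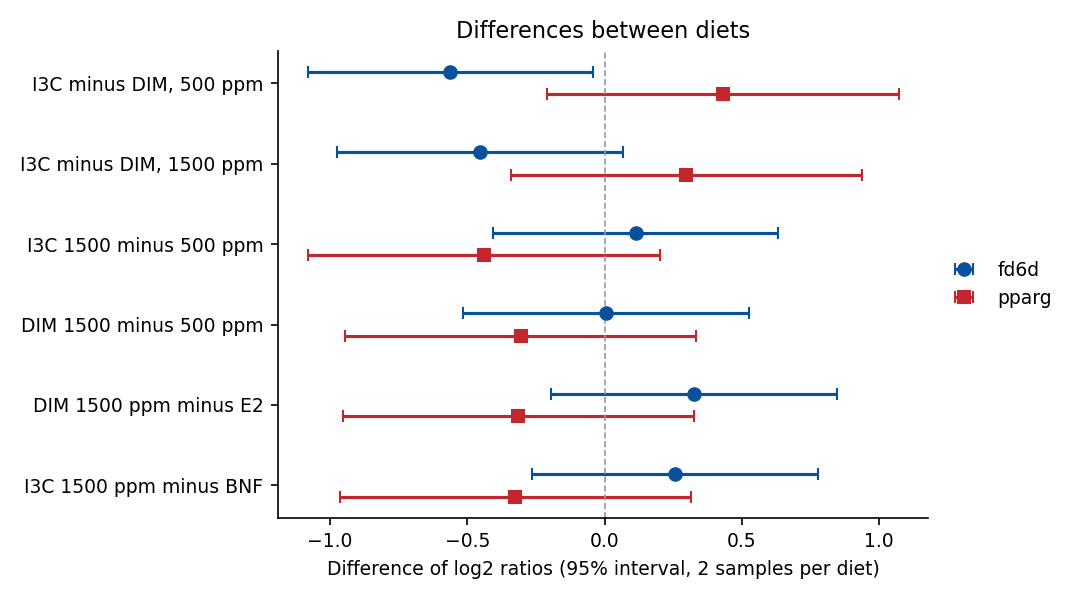
Differences between diets in the log2 ratio of fd6d (blue circles) and pparg (red squares), with 95% intervals from limma and 2 samples per diet, both turned samples included. The fd6d interval for I3C minus DIM at 500 ppm, -1.08 to -0.042, is the only one of the 12 that leaves out 0, and it was not called after adjustment over all features.

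Across the 12 samples the 2 genes ran against each other. Their log2 ratios had a Pearson correlation of -0.68 and a Spearman correlation of -0.51 (n = 12), given as a description, since all samples share the pool and come in pairs from 1 diet. The Pearson correlation was -0.76 without the 2 samples farthest from the fd6d median and -0.62 without the 2 farthest from the pparg median. Under the deposited signs it was -0.59, and Spearman's -0.79. As turned, and counted from the highest correlation, pparg ranked at 4190 among all features for fd6d, and fd6d at 4017 for pparg, so neither was the most opposed feature. In 5 of 6 diets the sample with the higher fd6d had the lower pparg, and DIM at 500 ppm was the exception. That pattern was common, and 29.8% of features ran against fd6d in at least 5 of the 6 diets. The deposited signs had pparg run against fd6d in all 6 diets, as they did for 3.85% of features. Of the lists of lipid genes, fd6d was the only named member of 13 desaturation and elongation genes, and pparg the only named member of 14 genes of the PPAR family and its partners. Of 11 genes of lipid synthesis, 15 of lipid uptake and carriage, 10 of fatty acid oxidation and 3 of microsomal electron transfer, 0 were named, so that no wider lipid pathway could be followed.

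Among named features, the pattern most like that of fd6d was LOC100136761 at spots 6030209 and 6030210, with a Pearson correlation of 0.82 and a Spearman correlation of 0.87 over 12 samples. It ranked at 27 among all features, and the correlation was 0.69 without the 2 samples farthest from the fd6d median. In all 6 diets the sample with the higher fd6d also had the higher LOC100136761. With the deposited signs the order within diets was the same and the correlation was 0.91. Those signs reverse both features together in the same 2 samples, where both stood high, so this is no separate check. LOC100136761 was picked for its correlation over these same samples, so the agreement is a description, and no share of all features is given for it. The diets still differed between the 2: LOC100136761 stood at 1.61 on I3C at 1500 ppm and 1.58 on E2, where fd6d stood at 0.17 and 0.30, and at 1.85 and 1.95 on the DIM diets. Its first samples on E2 and on DIM at 500 ppm, at 1.76 and 1.89, were turned and would be negative with the deposited signs. Next came the ribosomal protein gene rps7 at 0.58, LOC100135798 at 0.53, hn1 at 0.38 and gs04 at 0.29. The last of these stood highest on DIM, at 0.62 and 0.37, but followed fd6d within only 2 of 6 diets, or 3 of 6 with the deposited signs, at a correlation of 0.50.

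Over the whole array the closest feature to fd6d was unnamed, at spots 1021303 and 1021304, with a correlation of 0.93. Its means ran 0.53 and 0.59 on DIM at 500 and 1500 ppm, 0.38 on E2, 0.34 and 0.065 on I3C at 1500 and 500 ppm, and -0.063 on BNF, the same order of compounds as fd6d. The feature was picked for its correlation over these same samples, so the shared order is a description. Its means on E2 and on DIM at 500 ppm include a turned sample. A further 2 unnamed features, at spots 1020907 and 1020908 and at spots 2030807 and 2030808, had 0.89 each. The median correlation of fd6d with all features was -0.13.

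For pparg the most alike named features were stl3 at 0.80, LOC100135948 at 0.74, LOC100136015 at 0.66, the superoxide dismutase gene sod1 at 0.64 and the constitutive chaperone gene hspa8 at 0.56, over the same 12 samples. Without the 2 samples farthest from the pparg median, stl3 dropped to 0.46 and LOC100135948 stood at 0.65. Over all samples with the deposited signs these were 0.74 and 0.67. The closest feature of the array, unnamed and at spots 2030311 and 2030312, reached 0.95. The top 2.5% of all features started at 0.81 for pparg and 0.75 for fd6d, so none of the named features listed for pparg was among them.

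**Figure D3:**
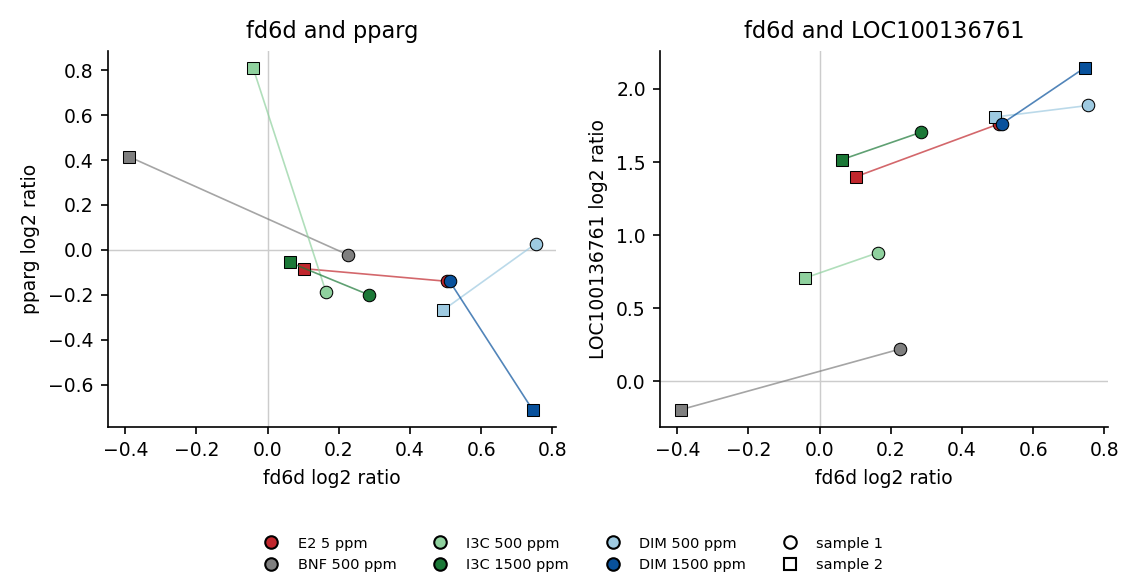
Log2 ratio of fd6d in 12 samples (horizontal) against pparg (left) and LOC100136761 (right), in the likely direction and with the turned samples included; colours are diets, circles and squares the first and second sample, and a line joins the samples of a diet. The line rises to the right in all 6 diets for LOC100136761, which was picked for its correlation with fd6d over these samples, and falls in 5 of 6 for pparg.

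The fd6d ratio on DIM was set out under each way of processing. Over 13 alternatives other than leaving out 1 sample, the ratio at 1500 ppm stayed between 0.42 and 0.70 and was called in 6. At 500 ppm it lay between -0.13 and 0.81 and was called in 7, and the lowest value was that with the deposited signs. Both counts include a fit of the 24 arrays in place of the 12 samples. In that fit the arrays of a swap, which are technical repeats, were the units, and the SE was 0.15 instead of 0.17.

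**Figure D4:**
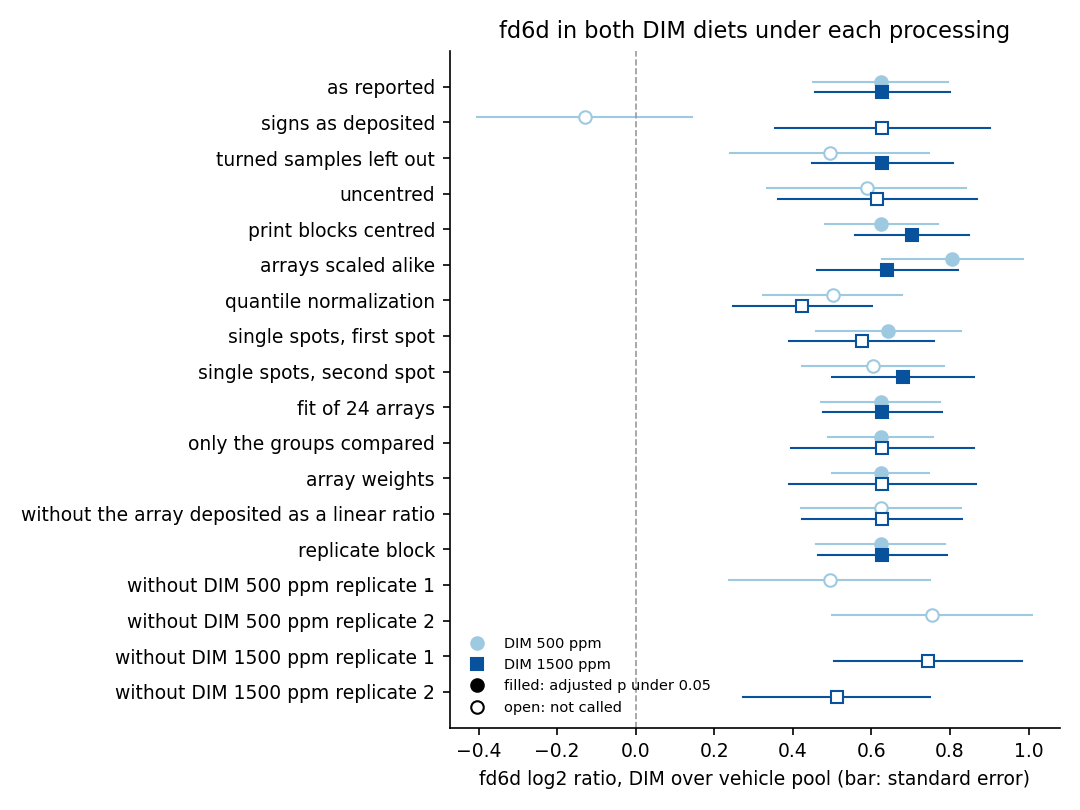
Log2 ratio of fd6d to the vehicle pool on DIM at 500 ppm (circles) and 1500 ppm (squares) as reported and under each alternative, with standard errors; filled symbols have a limma adjusted p under 0.05. All but 1 of the values lie between 0.42 and 0.81, and the exception is -0.13 for DIM at 500 ppm with the deposited signs.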

How the data were processed

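For 8736 spots on 24 arrays the authors deposited a table with 0 missing values. From the values, 23 deposited columns are log ratios, taken as log2. The column of the first BNF sample whose diet RNA carried Cy5 is, from its values, a linear ratio as deposited (median 1.01) and was converted to log2. Scanning used a ScanArray instrument and QuantArray, per the labels; the background correction, normalisation, log base and numerator were not given in the sources used here. Intensities were not used here, so dim spots were not filtered, and 2 samples per diet beside 1 reference pool limit the precision. Arrays with diet RNA in Cy5 were multiplied by -1, arrays with a median correlation under -0.3 with others of their orientation were turned, and each array was centred on its median. Spot pairs and then dye swaps were averaged. A mean for each of 6 diets was fitted over 12 samples and 4368 features (lmFit and eBayes of limma 3.58.1, R 4.3.3), with Benjamini-Hochberg adjustment over all features, and was tested on simulated data. Of 33 Entrez genes in the annotation, 27 were found in the RefSeq table, and 8638 spots are unnamed here. Members, lists and settings were chosen with earlier results of these data known. Named beside the members are the 5 named features and the 3 features of the array most correlated with each (for pparg only the first of the 3), and every measured gene of the lists. The replicate numbers were not used to pair the samples in the main fit, and no label says whether they do. No sequence of either gene was at hand, and none is printed.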

Additional observations from a re-analysis of the deposited data

How the results depend on the processing

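Each value was recomputed under the alternatives, and 302 of 336 values kept direction and call, whatever the change in size, leaving out single samples aside. That count includes F tests, which have no direction, and mostly results that were not called to begin with. For fd6d on DIM, direction and call were kept in 7 of 13 alternatives at 500 ppm and 6 of 13 at 1500 ppm. Both counts include the fit of 24 arrays. The fd6d calls on DIM were lost with signs as deposited (-0.13 at 500 ppm, 0.63 at 1500 ppm), uncentred (0.59 and 0.61), with quantile normalization (0.50 and 0.42) and without the array deposited as a linear ratio (0.62 and 0.63). At 500 ppm the call was also lost with the turned samples left out (0.49) and for the second spot alone (0.60), and at 1500 ppm for the first spot alone (0.57), with only the groups compared (0.63) and with array weights (0.63). pparg on DIM at 1500 ppm was called with quantile normalization (-0.64), which lowered pparg on every other diet too. With signs as deposited, fd6d turned to -0.20 on E2 and to 0.19 for I3C minus DIM at 500 ppm, and pparg to 0.028 on E2. Uncentred, fd6d turned to -0.064 on E2 and -0.41 on I3C at 500 ppm, and pparg to -0.16 on BNF, -0.16 on I3C at 500 ppm, -0.0040 for I3C minus DIM at 500 ppm and 0.040 for DIM minus E2. fd6d on I3C at 500 ppm was -0.022 with print blocks centred and -0.081 with quantile normalization, which also gave -0.012 for fd6d on I3C at 1500 ppm and -0.088 for pparg on BNF. fd6d on BNF was 0.045 with arrays scaled alike, 0.0054 for the first spot and 0.077 without the array deposited as a linear ratio, where pparg on BNF was -0.094. The DIM dose step of fd6d turned to -0.17 with scaled arrays, -0.078 with quantile normalization and -0.069 for the first spot. The cause of these changes was not tested.

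Leaving out 1 sample, with the lone sample assumed to vary like the other groups, gave fd6d 0.49 to 0.75 on DIM at 500 ppm, 0.51 to 0.74 on DIM at 1500 ppm, -0.39 to 0.23 on BNF, -0.041 to 0.16 on I3C at 500 ppm, -0.13 to 0.13 for the DIM dose step and -0.052 to 0.56 for I3C minus BNF. It gave pparg -0.023 to 0.42 on BNF, -0.19 to 0.81 on I3C at 500 ppm, -0.27 to 0.028 on DIM at 500 ppm, -0.069 to 0.93 for I3C minus DIM at 500 ppm and -0.94 to 0.060 for the I3C dose step. With a replicate block both fd6d calls on DIM were kept, at unchanged ratios of 0.62 and 0.63, and no other call changed. The deviations of same-numbered samples correlated at -0.60 to 0.46 over 15 pairs of diets.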

Other observations

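The 2 genes read differently in the 2 dye orientations. The array with diet RNA in Cy3 read higher than its swap for fd6d in 11 of 12 samples, by a median of 0.32 on the log2 scale. For pparg it read lower in 10 of 12 samples, with a median of -0.63. No such count is given for all features. Both counts include the turned samples. The fd6d gaps of 1.08 in the first E2 sample and 0.19 in the first DIM sample at 500 ppm reverse with the deposited signs. The widest gaps were 1.12 for fd6d and -1.61 for pparg, both in the first I3C sample at 500 ppm. Every sample value above is the mean over the swap, in which a constant shift of this kind cancels.

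Whether the dose step differed between the compounds was also tested, by a contrast added after the data had been seen. The step from 500 to 1500 ppm of I3C minus that of DIM was 0.11 ± 0.34 for fd6d and -0.13 ± 0.42 for pparg, with an adjusted p of 0.998 from limma for each. This contrast includes the turned DIM sample and is given only as turned.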
